A study of Rattus norvegicus with 6 samples.

Results

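Astrocyte identity genes and the transcription factors that set glial fate were followed in cultured rat spinal cord astrocytes with and without a mutant human SOD1 transgene. The 10 genes were chosen by name: Fabp7, Acsbg1, Aldh1l1, Ndrg2, Mlc1, Slc7a10, Sox2, Sox9, Nfia and Nfib. Every probe set, a group of short probes on the array that are read together as 1 signal, was taken if the platform annotation gave it 1 of these symbols. This found 17 of the 31042 probe sets that are not controls, for 9 of the 14217 genes with a probe set of a single symbol. Sox9 had no probe set by this rule and is not analysed here. Of the 17 probe sets, 13 passed the filter on dim probe sets, for 8 genes, and the 4 others are given by their signals only.

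Gene expression was measured on 6 Affymetrix Rat Genome 230 2.0 arrays. On 3 of them was RNA of SOD1-G93A cultures, astrocytes of hSOD1G93A transgenic rats, and on 3 that of NonTG cultures, astrocytes of nontransgenic rats. Human SOD1 with the G93A substitution causes familial amyotrophic lateral sclerosis, and the comparison asks how its presence alters the transcripts of astrocytes. All cultures were confluent primary monolayers from spinal cord that spent 24 hours in supplemented L15 medium before 5 µg of total RNA was labelled for each array. The labels credit the transgenic rats to D. S. Howland and name no promoter, line or age, and they leave unsaid whether separate animals or cultures lie behind arrays A, B and C of a group. The p-values therefore reflect how these arrays scatter, which may be technical scatter alone.

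Fabp7, Aldh1l1, Acsbg1, Ndrg2 and Mlc1 are used as markers of astrocytes because these cells express them strongly in the central nervous system. The SOX factors Sox2 and Sox9 keep neural progenitors in their undifferentiated state, and Sox9 then takes part in the switch from making neurons to making glia. The nuclear factor I proteins Nfia and Nfib act after Sox9 in the embryonic spinal cord of mouse and chick, where they start the production of astrocytes, and they bind DNA as dimers.

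The signals are the authors' linear MAS5 intensities, scaled to a common mean. Each difference is the mean log2 signal of SOD1-G93A minus that of NonTG, from limma, a linear model fitted across 18625 probe sets, with p-values adjusted over all of them. The median signal per array was 130.46 to 136.75 in SOD1-G93A and 129.29 to 135.92 in NonTG. The 3' to 5' ratio of the Gapdh control probe sets was 0.996 to 1.008 in SOD1-G93A and 0.954 to 1.012 in NonTG. That of actin was 1.101 to 1.142 in SOD1-G93A and 1.131 to 1.190 in NonTG, and it was lower in SOD1-G93A within each letter. Whether it bears on the genes described here was not tested. The rat Sod1 probe set (1367641_at) had signals of 9781, 10860 and 10510 in SOD1-G93A, against 8982, 8855 and 9430 in NonTG. It was designed for the rat transcript and does not check the human transgene. A signal of 66.7, the 40th percentile of mean signals, was the level under which a probe set counted as dim. Signals of different probe sets are not compared with each other here, since probes differ in how well they bind.

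RefSeq's promoter table for the rat assembly GRCr8 held all 9 genes with a probe set, in 10 entries because Ndrg2 has 2. The 250 bases before each listed start were searched on both strands for 4 motifs: the nuclear factor I core TTGGC, the full site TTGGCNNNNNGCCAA, and the SOX sites ACAATG and ACAAAG. The full site contains the core. The core was found in 5 of the 9 genes, Fabp7, Acsbg1, Ndrg2, Sox2 and Mlc1, and in 40.3% of the table's 33469 promoters. Only 1 of the 2 Ndrg2 entries held it, and the 40.3% counts promoters rather than genes. The full site was found in 0 of the 9 and in 0.0359% of all. ACAATG was in 0 of the 9 and in 11.1% of all, and ACAAAG was in Mlc1 alone among the 9 and in 16.3% of all. These matches are a description of the letters only.

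The promoters of Acsbg1, Ndrg2 and Mlc1 are shown because these 3 genes had their highest signal on array B of both groups and each carry the core. Nfia on 1370724_a_at was also highest on array B of both groups, and its promoter held no core. Fabp7 and Sox2 carry the core, and no tested probe set of theirs was highest on B in both groups. A link between the core and array B was not tested. The Acsbg1 stretch is chr8:63943279-63943528, the Ndrg2 stretch chr15:27083121-27083370 and the Mlc1 stretch chr7:121946699-121946948, all on the minus strand. Capitals mark the matches on either strand: the core 238 and 215 bases before the start in Acsbg1, 72 bases before it in Ndrg2 and 28 bases before it in Mlc1, and ACAAAG 146 bases before it in Mlc1.
Acsbg1: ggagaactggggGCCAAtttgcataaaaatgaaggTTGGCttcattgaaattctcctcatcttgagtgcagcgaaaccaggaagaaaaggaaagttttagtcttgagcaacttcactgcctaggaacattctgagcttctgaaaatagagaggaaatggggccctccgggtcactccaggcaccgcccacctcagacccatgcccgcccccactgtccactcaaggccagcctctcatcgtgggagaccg
Ndrg2: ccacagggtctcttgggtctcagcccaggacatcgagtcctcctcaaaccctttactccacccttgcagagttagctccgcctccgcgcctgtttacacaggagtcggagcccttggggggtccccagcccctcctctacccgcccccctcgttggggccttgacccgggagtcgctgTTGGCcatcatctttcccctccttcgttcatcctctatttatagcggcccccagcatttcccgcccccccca
Mlc1: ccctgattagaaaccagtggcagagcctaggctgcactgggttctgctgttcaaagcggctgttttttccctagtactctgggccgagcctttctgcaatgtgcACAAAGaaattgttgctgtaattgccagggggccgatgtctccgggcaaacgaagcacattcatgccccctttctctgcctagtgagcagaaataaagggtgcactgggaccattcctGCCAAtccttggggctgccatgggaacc

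Of the 13 tested probe sets of these genes, 0 passed limma's adjusted threshold of 0.05, as did 0% of all 18625. Without adjustment, 0 of the 13 had a limma p below 0.05, against 2.54% of all probe sets, and with the letter as a block it was again 0 of the 13, against 5.85% of all. In 7 of them the difference was above 0 and in 6 below, against 52.0% above 0 in all. Fabp7 was at -0.096 (SE 0.066), Aldh1l1 at 0.20 (SE 0.18) and Mlc1 at 0.13 (SE 0.14), and the probe sets of Sox2, Nfia and Nfib lay between -0.10 and 0.15. None of the 13 had all SOD1-G93A arrays on the same side of all NonTG arrays, a separation shown by 7.51% of all probe sets. The adjusted p was 0.9997 or 0.9998 for each of the 13.

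**Figure D1:**
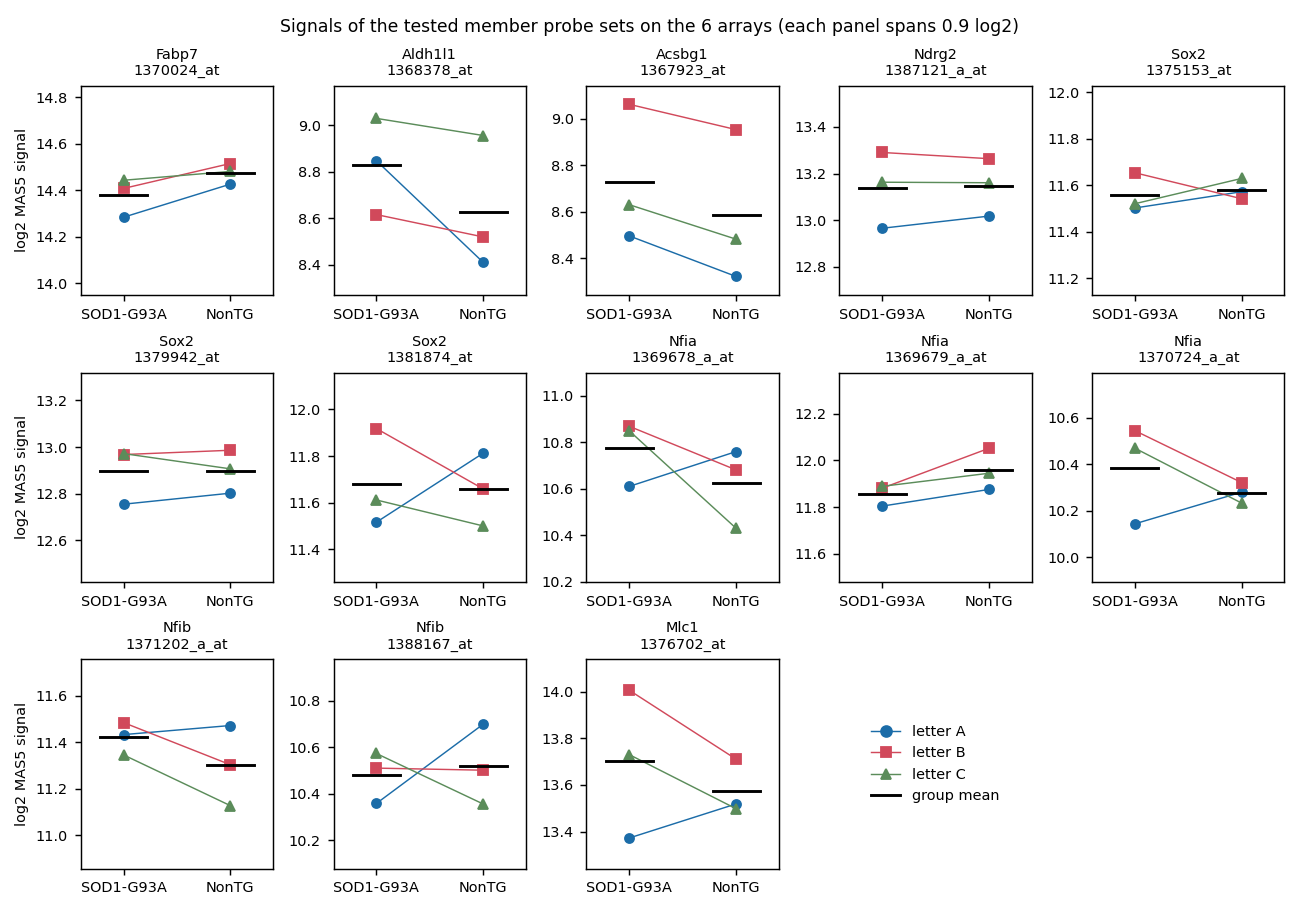
Log2 MAS5 signal of the 13 tested probe sets, 1 panel each with its own range, SOD1-G93A left of NonTG, with a line joining arrays of the same letter and a black bar for the group mean of 3 arrays. The groups overlap in every panel, and Acsbg1 and Ndrg2 show the letters in the order B, C, A from high to low in both groups.

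Fabp7, the brain fatty acid binding protein of radial glia and astrocytes, is read by 1 probe set (1370024_at). Its signals were 19938, 21724 and 22260 on SOD1-G93A arrays A, B and C, against 22005, 23400 and 22855 on NonTG arrays A, B and C. The arrays of SOD1-G93A were the lower ones within each letter, yet SOD1-G93A C lay above NonTG A. The difference was -0.096 (SE 0.066, 95% interval -0.24 to 0.052), a fold of 0.936 with an interval of 0.844 to 1.04. After quantile normalization it was 0.0029, so that its sign depends on the scaling. Fabp7 had the smallest unadjusted limma p of the 13, at 0.178, and 0.0722 with the letter as a block.

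Acsbg1, the "bubblegum" acyl-CoA synthetase that activates long and very long fatty acids for metabolism, is likewise read by 1 probe set (1367923_at). SOD1-G93A arrays A, B and C gave 361.1, 534.5 and 396.3, against 320.0, 495.7 and 357.6 on the NonTG arrays. Array B was the highest and array A the lowest in each group, and within each letter the SOD1-G93A array was above its NonTG counterpart, by 0.17, 0.11 and 0.15 on the log2 scale. The mean difference was 0.14 (SE 0.20, 95% interval -0.31 to 0.60), and with the letter as a block its SE was 0.12 and limma's unadjusted p 0.260. The step between letters was larger than that between groups. The letters took 92.4% of the sum of squares over the 6 arrays, the groups 7.36% and the remainder 0.26%.

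Aldh1l1, the folate enzyme 10-formyltetrahydrofolate dehydrogenase, had signals of 460.9, 392.5 and 522.8 in SOD1-G93A and 340.4, 367.2 and 496.8 in NonTG (1368378_at). SOD1-G93A was above NonTG within each letter, by 0.44 for A, 0.096 for B and 0.073 for C. Array C was the highest in both groups, and NonTG C lay above SOD1-G93A A and B. The difference of 0.20 was the highest of the 13 tested probe sets, and its 95% interval of -0.19 to 0.60 covers folds of 0.874 to 1.51.

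Ndrg2 encodes a cytoplasmic protein of the N-myc downstream-regulated family that in the brain is found mainly in astrocytes. Its tested probe set (1387121_a_at) gave 7993, 10019 and 9169 in SOD1-G93A, against 8288, 9836 and 9155 in NonTG. Arrays of the same letter were almost level across the groups: the differences within A, B and C were -0.052, 0.027 and 0.0022. Over the 6 arrays, 98.0% of the sum of squares lay between letters and 0.108% between groups. The mean difference was -0.0078 (SE 0.099, 95% interval -0.23 to 0.21), and 0.037 after quantile normalization. A second Ndrg2 probe set (1398111_at) was dim on every array, with 25.01, 1.77 and 2.15 in SOD1-G93A and 1.87, 49.4 and 4.76 in NonTG.

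Mlc1 is a membrane protein of astrocyte end feet, and its human counterpart is mutated in megalencephalic leukoencephalopathy with subcortical cysts, in which the regulation of astrocyte volume is disturbed. Its signals (1376702_at) were 10602, 16471 and 13595 in SOD1-G93A, against 11735, 13413 and 11570 in NonTG. The lowest and the highest of the 6 values were both SOD1-G93A arrays, A and B, and the NonTG arrays lay between them. Between arrays of the same letter the difference was -0.15 in A, 0.30 in B and 0.23 in C. The mean difference was 0.13 (SE 0.14, 95% interval -0.19 to 0.45, a fold of 0.876 to 1.36). It moved most with SOD1-G93A A: without that array it was 0.29, with an unadjusted limma p of 0.0213 and an adjusted p of 0.7624. Without SOD1-G93A B it was -0.025.

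Slc7a10, the transporter Asc-1 for small neutral amino acids and D-serine, was near the lower end of the scale (1370115_at). It gave 46.5, 46.3 and 54.1 in SOD1-G93A, against 83.8, 14.96 and 42.8 in NonTG. NonTG A was above the dim level of 66.7 and the other 5 arrays were under it, and the mean did not pass the filter. In a fit without that filter the difference was 0.37 (SE 0.64, 95% interval -1.06 to 1.81), with an adjusted limma p of 0.9998. Among the genes chosen here as astrocyte markers that had a probe set, Slc7a10 alone had none past the filter. Fabp7, Acsbg1, Aldh1l1, Ndrg2 and Mlc1 were each above the dim level on all 6 arrays by their tested probe sets. Of the other astrocyte markers described below, 30 had a probe set and 23 were tested. Slc7a10 was therefore not the only dim astrocyte marker.

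Sox2, the SOX factor of neural progenitors, is read by 4 probe sets, of which 3 were tested. On 1379942_at it had 6908, 8010 and 8033 in SOD1-G93A and 7139, 8113 and 7676 in NonTG. On 1375153_at the signals were 2900, 3221 and 2937 in SOD1-G93A and 3044, 2981 and 3167 in NonTG. Neither probe set put the groups apart, with differences of -8.9e-05 (SE 0.085) and -0.022 (SE 0.078). The third, 1381874_at, gave 2927, 3870 and 3128 in SOD1-G93A against 3596, 3233 and 2895 in NonTG, a difference of 0.025 (SE 0.12) made of -0.30 within A, 0.26 within B and 0.11 within C. The 3 intervals together ran from -0.25 to 0.30. The dim probe set 1389826_at had 1.89, 14.1 and 4.31 in SOD1-G93A and 7.79, 3.01 and 6.95 in NonTG. The 3 tested probe sets read the same gene and are not independent of each other.

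Nfia was read by 3 probe sets whose differences did not all have the same sign. On 1369678_a_at the signals were 1563, 1870 and 1845 in SOD1-G93A, against 1734, 1642 and 1380 in NonTG, with a difference of 0.15 (SE 0.12). On 1370724_a_at they were 1131, 1493 and 1417 in SOD1-G93A, against 1243, 1279 and 1203 in NonTG, with a difference of 0.11 (SE 0.12). Both had SOD1-G93A below NonTG within letter A and above it within B and C. The third, 1369679_a_at, gave 3575, 3771 and 3792 in SOD1-G93A against 3757, 4247 and 3943 in NonTG. There SOD1-G93A was lower within every letter, and the difference was -0.10 (SE 0.077, 95% interval -0.27 to 0.074). Without SOD1-G93A A the difference of 1370724_a_at was 0.23, with an unadjusted limma p of 0.0449 and an adjusted p of 0.7777.

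Nfib, the partner of Nfia in the onset of gliogenesis, had 2 tested probe sets. The first, 1371202_a_at, gave 2763, 2864 and 2601 in SOD1-G93A and 2839, 2526 and 2236 in NonTG, a difference of 0.12 (SE 0.10, 95% interval -0.11 to 0.35). The second, 1388167_at, gave 1313, 1459 and 1524 in SOD1-G93A and 1663, 1450 and 1311 in NonTG, a difference of -0.038 (SE 0.11). In that probe set NonTG A was the highest array and the within-letter differences were -0.34, 0.0084 and 0.22. The dim probe set 1388250_at had 18.0, 24.0 and 9.25 in SOD1-G93A against 6.51, 45.5 and 14.7 in NonTG.

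The precision of these values sets what the arrays could show. The median SE of a difference was 0.11 over the 13 probe sets and 0.16 over all tested. For 11 of the 13 the 95% interval stayed within 1.5-fold up and down, against 63.6% of all, and the other two, Aldh1l1 and Acsbg1, reached folds of 1.51 and 1.52. With the letter as a block the median SE was 0.081 and all 13 intervals stayed within 1.5-fold, against 69.9% of all. All 13 intervals lay within 2-fold, against 90.8% of all. The median difference was 0.025 for these probe sets and 0.0070 for all. The median size of a difference, whatever its sign, was 0.0998 for them and 0.1002 for all, and 13 of the 13 differences lay within 0.25 of 0, against 83.4% of all.

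**Figure D2:**
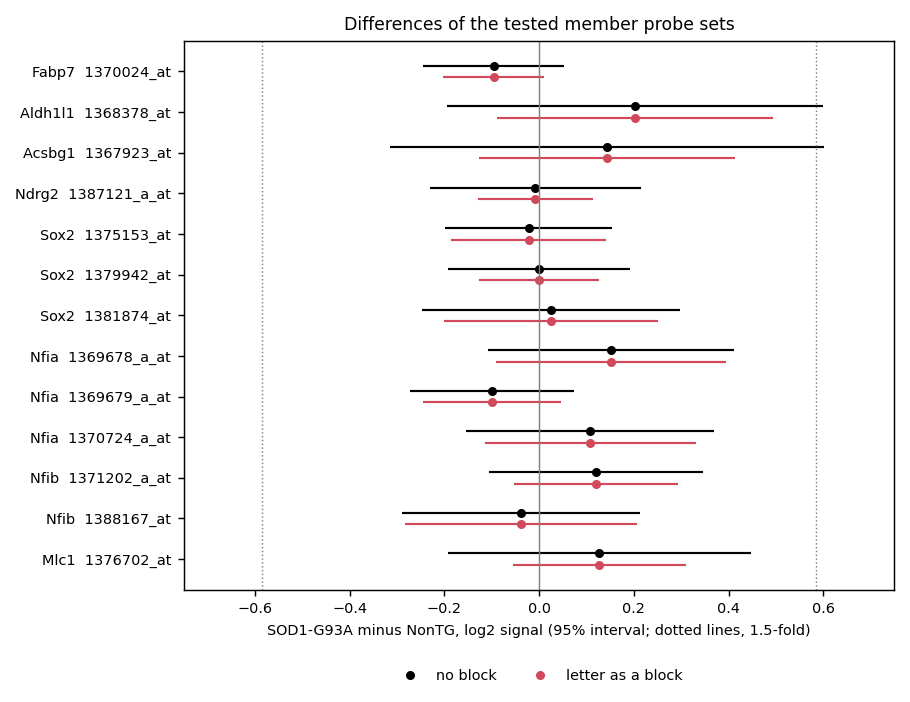
Log2 difference between SOD1-G93A and NonTG (positive where SOD1-G93A is higher) for the 13 tested probe sets, with 95% intervals from limma without a block (black) and with the letter as a block (red), and dotted lines at 1.5-fold. Every interval includes 0, and those of Aldh1l1 and Acsbg1 without the block reach past 1.5-fold at their upper end.

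By the median, the letters A, B and C took a larger share of the sum of squares than the groups did. This held for these genes and for all tested probe sets alike. In Nfia on 1369678_a_at the share between groups was the larger, 25.7% against 14%. With 1 degree of freedom for the groups and 2 for the letters, shares of 20% and 40% would arise on average if neither had an effect. The median share between letters was 47.7% in the 13 and 50.5% in all tested probe sets, and that between groups 9.56% and 10.3%. In limma's F test of the letters, 5 of the 13 had an unadjusted p below 0.05, against 15.6% of all. They were Ndrg2 (0.00545), Acsbg1 (0.00661), Mlc1 (0.00704), Sox2 on 1379942_at (0.0395) and Aldh1l1 (0.0498). After adjustment 0 of the 13 passed, the smallest being 0.141 for Ndrg2, against 1.05% of all.

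**Figure D3:**
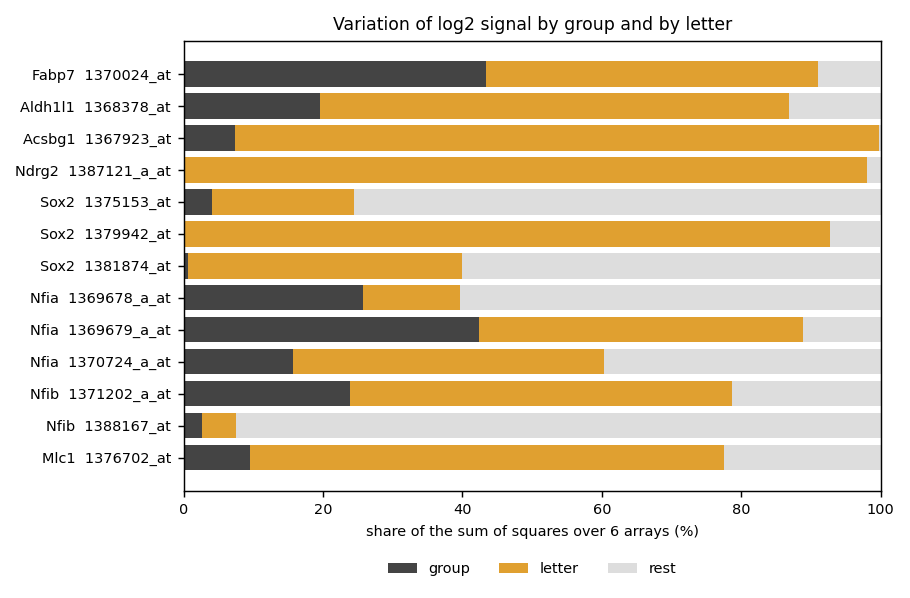
Share of the sum of squares of log2 signal over the 6 arrays that lies between the groups, between the letters and in the rest, in percent, for the 13 tested probe sets. The letters take 98.0% in Ndrg2 and 92.4% in Acsbg1, and the groups take at most 43.4%, in Fabp7.

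The order of the letters was not the same in all of these genes. Array B was the highest of both groups in 4 of the 13 probe sets, those of Acsbg1, Ndrg2 and Mlc1 and Nfia on 1370724_a_at, against 16.2% of all tested probe sets. The full order of the letters was the same in both groups in 2, Acsbg1 and Ndrg2, against 24.9% of all. In Aldh1l1 it was array C that was highest in each group. SOD1-G93A was higher within all 3 letters in 2 of the 13, Aldh1l1 and Acsbg1, against 13.5% of all. It was lower within all 3 in 2, Fabp7 and Nfia on 1369679_a_at, against 12.2% of all.

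Cell type markers varied between the arrays too. Per array, the median deviation of the 9 tested pericyte and smooth muscle markers was 0.34, -0.68 and 0.0073 on SOD1-G93A A, B and C, and 0.18, -0.25 and 0.41 on NonTG A, B and C. The 4 ependymal markers were at -0.49, 0.47 and 0.11 in SOD1-G93A and -0.22, 0.16 and -0.18 in NonTG. Array B thus had the lowest pericyte value and the highest ependymal value of each group. It was also the array where Acsbg1, Ndrg2 and Mlc1 were highest, while Aldh1l1 was highest on array C. The endothelial median was also lowest on B of each group, at -0.097 and -0.25. The oligodendrocyte median was lowest on C of each group, at 0.048 in SOD1-G93A and -0.37 in NonTG. The Schwann cell median was lowest on A of each group, at -0.0066 and -0.24. The neuronal median was lowest on B in SOD1-G93A, at -0.040, and on A in NonTG, at -0.13. The microglial median was lowest on A of each group, at -0.45 and -0.53, and the fibroblast median was lowest on B in SOD1-G93A only. The same median over the 8 measured genes of interest was -0.14, 0.097 and 0.018 in SOD1-G93A and -0.11, 0.089 and 0.013 in NonTG. The part of these other cells in the values of astrocyte genes was not tested, and in bulk RNA fewer cells of a type cannot be told apart from less RNA per cell.

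**Figure D4:**
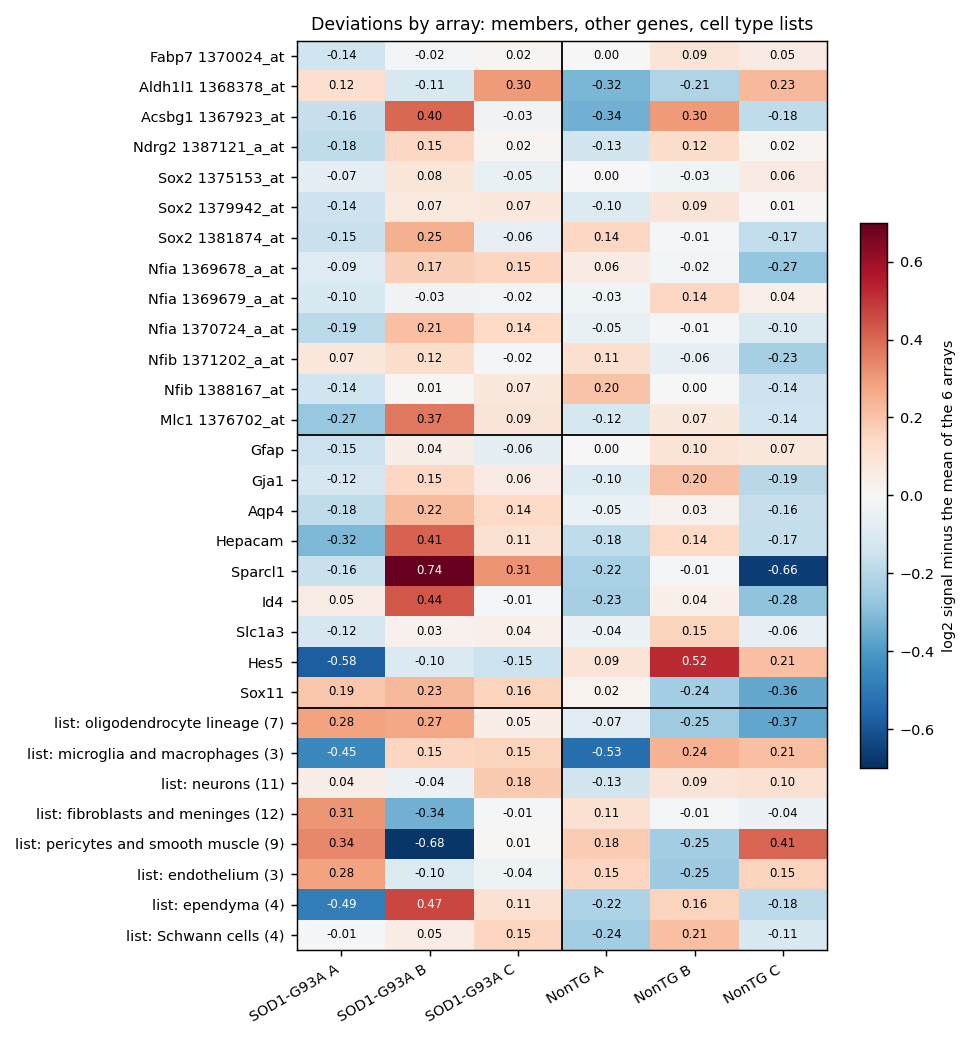
Deviation of each log2 signal from its mean over the 6 arrays, with arrays in columns (SOD1-G93A left of NonTG) and rows for the 13 tested probe sets, 9 other glial genes, and the medians of 8 cell type lists with their number of tested genes. Acsbg1, Ndrg2 and Mlc1 are highest on array B of each group, where the pericyte and endothelial lists are lowest. The microglial and Schwann cell lists are lowest on array A of each group, and the oligodendrocyte list on array C.

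Markers of other cell types were read on the same arrays. Of 14 microglia and macrophage genes with a probe set, 3 were above the filter, and their summed signal was 226 to 351 in SOD1-G93A and 232 to 372 in NonTG, near the dim level per gene. All 12 fibroblast and meningeal genes were tested, with a summed signal of 54833 to 77497 in SOD1-G93A and 72748 to 77844 in NonTG, and Col1a2, a chain of type I collagen, was among the brightest. Their difference was above 0 in 4 and below 0 in 8, with a median of -0.13, which was -0.0053 without SOD1-G93A B and -0.20 without SOD1-G93A A. With the letter as a block 9 of the 12 had an unadjusted limma p below 0.05, against 5.85% of all probe sets. Without it 2 did, against 2.54% of all. Of the 9, Dcn, Aldh1a2 and Islr had a difference above 0. Col1a1, Col1a2, Col3a1, Postn, Fn1 and Thy1 were below 0, and Col1a2 was at -0.12 without overlap. The matrix proteoglycan Dcn, named after its values were seen, had the largest difference of the list at 2.52, without overlap. Its adjusted limma p of 0.4004 was the smallest of all 18625 probe sets. The others above 0 were Aldh1a2 at 1.15, without overlap, and Lum at 1.08 and Islr at 0.31, with overlap. They too were named after their values were seen, as were Col1a1, Postn, Fn1 and Thy1. The 9 tested pericyte and smooth muscle genes all had a difference below 0, with a summed signal of 17818 to 29634 in SOD1-G93A and 23892 to 30040 in NonTG. Their median of -0.24 moved with single arrays: it was -0.028 without SOD1-G93A B and -0.53 without SOD1-G93A A, and -0.12 to -0.50 with 1 NonTG array left out. Of 13 oligodendrocyte lineage genes with a probe set, 7 were tested and 6 had a difference above 0, with a median of 0.25 (0.20 to 0.45 with 1 array left out). Their summed signal was 5900 to 8081 in SOD1-G93A and 5539 to 6091 in NonTG. Of 14 neuronal genes with a probe set 11 were tested, with a median difference of -0.032. For ependyma 4 of 5 were tested (median 0.098), for Schwann cells 4 of 5 (0.058) and for endothelium 3 of 9 (-0.0012), and each of these 4 medians turned sign when some single array was left out. In each of these lists 0 genes passed limma's adjusted threshold. With the letter as a block, 4 of the 7 oligodendrocyte and 3 of the 9 pericyte genes also had an unadjusted limma p below 0.05. Without it 2 and 1 of them did. Cnp, the 1 oligodendrocyte gene with a difference below 0, at -0.18, was among the 4, with an unadjusted limma p of 0.0354 with the block. For endothelium the count was 1 of 3 with the block and 0 without. For microglia, neurons, ependyma and Schwann cells it was 0 in both fits.

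Around these genes, 9 lists of related functions held 139 other genes, 104 of which were tested, each by its brightest probe set. Of the 104, 0 passed the adjusted threshold. Without adjustment 5 had a limma p below 0.05 (Slc7a11, Sparcl1, Cd44, Id4 and Agt), against 2.54% of all probe sets. In 8 the groups did not overlap, against the 7.51% of all given above. The difference was above 0 in 58 and below 0 in 46, with a median of 0.037. The smallest adjusted limma p among them was 0.9997. With the letter as a block 0 of the 104 passed and 12 had an unadjusted p below 0.05, against 5.85% of all. These were Slc7a11, Sparcl1, Cd44 and Id4 again, without Agt (0.0613), and Cav1, Gfap, Vim, Prom1, Fgfr3, Apoe, Tnc and Slc25a18, the last 4 named after their values were seen.

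Among 23 other astrocyte markers tested, 17 had a difference above 0 and 6 below, with a median of 0.14 and 0 past the adjusted threshold. The median was 0.016 without SOD1-G93A B and 0.32 without SOD1-G93A A. Gfap, the intermediate filament of astrocytes, had signals of 14400, 16419 and 15313 in SOD1-G93A and 15999, 17105 and 16814 in NonTG, a difference of -0.12 (SE 0.070). Gja1, which forms astrocyte gap junctions, and Aqp4, the water channel of end feet, had differences of 0.056 (SE 0.11) and 0.12 (SE 0.10). Sparcl1, the matrix protein hevin, had 2266, 4210 and 3142 in SOD1-G93A and 2162, 2501 and 1602 in NonTG, a difference of 0.60 (SE 0.22). Its unadjusted limma p of 0.0246 was the smallest of this list. Slc1a2, the glutamate transporter GLT-1, and Agt, the precursor of angiotensin, had no overlap between the groups: 120 to 143 in SOD1-G93A against 79.5 to 103 in NonTG for Slc1a2, and 171 to 211 in SOD1-G93A against 136 to 146 in NonTG for Agt.

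The relatives of the SOX and nuclear factor I members showed a median difference of 0.14 over 9 tested genes, 7 above 0 and 2 below, with 0 past the adjusted threshold. It was 0.049 without SOD1-G93A C and 0.21 without SOD1-G93A A. Sox11, a factor of immature neurons and progenitors, had 162.9, 166.5 and 158.6 in SOD1-G93A, against 144.7, 120.9 and 111.0 in NonTG. All 3 SOD1-G93A arrays lay above the NonTG arrays, and the difference was 0.38 (SE 0.20). Nfic and Nfix, the other two nuclear factor I genes, had differences of 0.23 (SE 0.17) and 0.14 (SE 0.11), and Sox4 one of 0.056 (SE 0.069). Sox10, the factor of the oligodendrocyte lineage, was under the dim level on all 6 arrays, at 7.16 to 52.2 in SOD1-G93A and 6.07 to 9.11 in NonTG.

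Of 22 other tested transcription factors of gliogenesis, 10 had a difference above 0 and 12 below, with a median of -0.050 (-0.049 to 0.038 with 1 array left out) and 0 past the adjusted threshold. Id4, an inhibitor of basic helix-loop-helix factors that astrocytes express, had 1931, 2521 and 1850 in SOD1-G93A and 1583, 1911 and 1530 in NonTG. SOD1-G93A was higher within each letter, NonTG B lay above SOD1-G93A C, and the difference was 0.32 (SE 0.14, unadjusted limma p 0.0426). Hes5, a repressor induced by Notch, had 63.2, 87.9 and 85.1 in SOD1-G93A, against 100.5, 135.2 and 109.2 in NonTG, a difference of -0.55 (SE 0.27) without overlap. The SOD1-G93A A value lay under the dim level. In 10 genes of radial glia and progenitors 6 differences were above 0 and 4 below, with a median of 0.040 (-0.053 to 0.061 with 1 array left out) and 0 past the threshold. Vim, an intermediate filament of immature glia, was at -0.10 (SE 0.070), Cd44, the hyaluronan receptor, at -0.27 (SE 0.11), and Prom1, a membrane protein of progenitors, at 0.31 (SE 0.17).

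The lists that surround single members had 0 genes past the adjusted threshold in each case. Beside Fabp7 and Acsbg1, 4 of 9 genes of fatty acid binding and activation had a difference above 0 and 5 below, with a median of -0.022 (-0.059 to 0.014 with 1 array left out). Of these, Acsl3, a long-chain acyl-CoA synthetase, had 1325, 1245 and 1209 in SOD1-G93A and 1070, 1157 and 1139 in NonTG, a difference of 0.17 (SE 0.090) without overlap. Cpt1a, which carries acyl groups towards mitochondria, was at 0.15 (SE 0.082), also without overlap, and Fabp5, a relative of Fabp7, at -0.059 (SE 0.089). Beside Aldh1l1, 4 of 10 folate enzymes had a difference above 0 and 6 below, with a median of -0.020 (-0.11 to 0.029 with 1 array left out). Mthfd2, a mitochondrial enzyme of this pathway, was at -0.35 (SE 0.24), and Mthfd1, its cytosolic relative, at 0.11 (SE 0.13). Mthfd1l had the lowest difference of the list, at -0.43 (SE 0.32), and its NonTG A value of 65.1 lay under the dim level.

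Beside Ndrg2, 1 of the 5 genes of the Ndrg family and of Myc and N-myc had a difference above 0 and 4 below, with a median of -0.063 (-0.20 to -0.019 with 1 array left out). Ndrg1 had 714.5, 1167 and 1310 in SOD1-G93A and 830.2, 1152 and 1196 in NonTG, a difference of -0.022 (SE 0.23), and as in Ndrg2 array A was the lowest in each group. Its unadjusted p in limma's F test of the letters was 0.000474, and its adjusted p of 0.0482 passed the threshold. Myc, a transcription factor of growth, was at -0.49 (SE 0.23), with NonTG A above SOD1-G93A A and B and below SOD1-G93A C.

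Beside Slc7a10, 8 of 13 genes of neutral amino acid and D-serine handling had a difference above 0 and 5 below, with a median of 0.081 (0.0098 to 0.13 with 1 array left out). Slc3a2, the heavy chain with which Slc7a10 pairs, had 6804, 7799 and 7519 in SOD1-G93A and 7409, 7601 and 7062 in NonTG, a difference of 0.0016 (SE 0.075). Slc7a11, the cystine and glutamate exchanger that shares this heavy chain, had 440.5, 629.4 and 518.5 in SOD1-G93A against 338.6, 438.1 and 349.6 in NonTG. Its groups did not overlap and the difference was 0.49 (SE 0.17). The unadjusted limma p of 0.0161 was the smallest in these 9 lists, with an adjusted p of 0.9997.

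Beside Mlc1, 7 of 10 genes of its partner proteins had a difference above 0 and 3 below, with a median of 0.052 (-0.0099 to 0.12 with 1 array left out). Hepacam, the adhesion protein GlialCAM that binds Mlc1 at cell junctions, had 2808, 4663 and 3770 in SOD1-G93A, against 3092, 3858 and 3110 in NonTG. As in Mlc1, SOD1-G93A A and B were the lowest and the highest of the 6 arrays, and the difference was 0.14 (SE 0.17), with an unadjusted p of 0.00310 in limma's F test of the letters. Cav1, the main protein of caveolae, had 12441, 12613 and 13306 in SOD1-G93A, against 13484, 14048 and 14295 in NonTG, a difference of -0.13 (SE 0.063) without overlap.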

How the data were processed

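Per the submitters' processing notes, the authors used GCOS 1.4 and MAS5 to make the deposited intensity values, 1 per probe set and array. The design text speaks of GC-RMA, but the values are linear, and their means after trimming 2% at each end were 500.16 to 500.17, as MAS5 scaling gives. Symbols came from GEO's platform annotation. The log2 was taken without a pseudocount. Probe sets with a mean at or below the 40th percentile were left out, as were 57 controls, which left 18625. Groups were compared with limma 3.58.1 under R 4.3.3 (lmFit, then eBayes with trend), in two-sided tests adjusted by Benjamini-Hochberg at a threshold of 0.05. The procedure was tested on simulated data. Permuting 3 against 3 arrays allows no p under 0.1. The number of arrays limits the precision.

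Whether the letters pair the arrays was checked from deviations from the group means. Same-letter correlations across groups were 0.30, 0.25 and 0.20, against -0.28 to 0.025 for different letters. Deviations from a group mean cancel out within the group, so the different-letter values are not separate evidence. Between whole arrays, SOD1-G93A A and B correlated most, among the NonTG arrays, with their own letter (0.9850 and 0.9768). SOD1-G93A C did so with NonTG B (0.9791, against 0.9783 with NonTG C). With so few arrays such a match can arise by chance, so this check cannot settle whether the letters pair the arrays. Values are from the fit without the block unless the block is named. With the letter as a block, unadjusted p-values under 0.05 numbered 1090 instead of 474 over all probe sets.

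The members and lists were chosen with earlier results of these data known. Of each list, the genes considered for naming were the 2 with the smallest p, the 2 brightest, fixed relatives of the members, and Sod1, together with genes whose groups did not overlap; those last ones and the F test of the letters were chosen after values were seen. Alternatives were the block, other filters, a pseudocount of 7.7, quantile normalization, array weights, no trend, 1 probe set per gene for the members or all of them for the lists, and leaving out each array.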

Additional observations from a re-analysis of the deposited data

How the results depend on the processing

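No gene of interest, listed gene or other probe set passed the adjusted threshold under any alternative run in limma, and the smallest adjusted p of the 13 tested probe sets was 0.7624, for Mlc1 without SOD1-G93A A. The replicate block changed no call, but it raised the count of probe sets with an unadjusted p below 0.05 to 1090, against 474 without it. That count was 999 without the dim filter, 283 with a stricter filter and 852 with array weights, and 340 to 1183 when 1 array was left out: 1183 without SOD1-G93A A and 822 without NonTG A. Among the 13 it was 0, and 0 to 2 with 1 array left out, the 2 being Mlc1 and Nfia on 1370724_a_at without SOD1-G93A A. Their median difference of 0.025 ranged from -0.035 to 0.11. Quantile normalization turned the sign of Fabp7 (0.0029), Ndrg2 (0.037) and Sox2 on 1379942_at (0.030), and array weights that of Sox2 on 1379942_at (0.010) and Nfib on 1388167_at (0.013). With 1 array left out the sign also turned for Acsbg1 (-0.022 to 0.33), Ndrg2 (-0.083 to 0.080), Sox2 on 1375153_at (-0.070 to 0.0061), 1379942_at (-0.048 to 0.072) and 1381874_at (-0.094 to 0.11), Nfib on 1388167_at (-0.12 to 0.052) and Mlc1 (-0.025 to 0.29). The cause was not tested. Aldh1l1, Nfia on each probe set and Nfib on 1371202_a_at kept their direction under every alternative run. Without detection calls, signals near 66.7 cannot be told from background.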
